A study of Mus musculus with 12 samples.

Results

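The Six-family, Eya and Dach genes encode the members of a transcriptional network first described in the developing eye and used again in muscle. Listed here are 9 of them, Six2, Six4, Six5, Eya1, Eya2, Eya3, Eya4, Dach1 and Dach2, of 24421 entries in the count table. They were taken by gene symbol, and the family was selected on the known difference between the 2 groups in these same libraries, so the values below describe that difference and no p-value is given for a listed gene. RNA of the tibialis anterior, a fast hindlimb muscle, was sequenced in 6 C57Bl/6 (WT) males and 6 mdx/mTR males, all aged 4 months. The mdx allele disrupts Dmd, which encodes dystrophin, and mTR denotes the RNA component of telomerase. The labels give the 2 groups by strain name only, with no background strain, litter or telomerase generation for mdx/mTR, so the mutations and any strain difference cannot be told apart. The labels also do not say how the mice were assigned to preparation or sequencing days.

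Six-family proteins bind DNA through a homeodomain, at a site in muscle promoters named MEF3. EYA proteins do not bind DNA themselves; they are carried to it by Six-family proteins and act there as coactivators, and they are also phosphatases. DACH proteins, which resemble the SKI family, act mostly as corepressors. In muscle, Six-family proteins with their EYA partners drive precursor formation, Myog expression and the fast fibre programme. Dach2 with Hdac9 is known to hold down Myog and acetylcholine receptor genes in innervated fibres.

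Reference sequence is shown for Dach2 and Dach1 because these are the listed genes whose groups separated. Both are the bases before the RefSeq start in GRCm38.p6, and capitals mark the E-box CANNTG, the site of myogenic bHLH factors, on either strand. The Dach2 stretch is chrX:113297260-113297509, plus strand, and the Dach1 stretch is chr14:98169766-98170015, minus strand.
Dach2: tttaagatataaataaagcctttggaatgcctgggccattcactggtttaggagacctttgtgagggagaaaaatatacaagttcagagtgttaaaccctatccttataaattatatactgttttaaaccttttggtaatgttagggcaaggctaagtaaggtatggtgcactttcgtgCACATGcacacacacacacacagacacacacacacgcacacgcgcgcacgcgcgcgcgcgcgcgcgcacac
Dach1: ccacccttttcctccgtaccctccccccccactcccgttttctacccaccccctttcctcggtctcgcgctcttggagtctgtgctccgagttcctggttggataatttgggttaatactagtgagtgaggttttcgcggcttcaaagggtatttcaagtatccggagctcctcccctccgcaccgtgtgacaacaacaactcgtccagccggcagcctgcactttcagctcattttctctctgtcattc
The Dach2 stretch held 1 E-box at offset -71 from the start, CACATG, beside a run of CA and CG repeats, and the Dach1 stretch held none. Of 27025 promoters of the same 300 bases (250 before and 50 after the start), 72.1% held CANNTG. GC content was 45.3% in this Dach2 window and 54.0% in the Dach1 window, against a median of 52.7% over all promoters. RefSeq lists a second Dach2 start whose window has 66.3% GC and no E-box. Which start was used in these muscles cannot be read from gene counts.

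Six4 is shown for the site that Six-family proteins themselves bind. Among the 7 listed genes found in the promoter table (Eya1 and Eya2 were not among its entries), 1 of the 2 Six4 windows held the MEF3 letters TCAGGTTTC, on the opposite strand, at offset -99 from the start. Over all promoters 0.440% held these 9 letters on either strand and 4.04% held the shorter TCAGGTT. The stretch lies at chr12:73113326-73113354, minus strand, with the match in capitals.
Six4: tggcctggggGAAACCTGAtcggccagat
A match of letters is a description of the reference and not evidence that a protein sits there.

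The libraries held 35136327 to 60330410 counts, and levels are given as CPM, the count relative to the size of its library after TMM scaling (trimmed mean of M-values). A count of 3, the limit that a count of 0 allows at 95% confidence for counting error only, corresponds to 0.0460 to 0.0837 CPM. Dmd, the check of the labels, ran from 228 to 244 CPM over the WT mice and from 35.2 to 56.4 CPM over the others. Myofibre markers were present in every library, and of 6 listed only Myh4 passed the test, lower in mdx/mTR. All 9 genes passed the filter on low counts, with the smallest count, 14, for Dach2 in mdx/mTR replicate 3. In bulk RNA, fewer cells of a type and less RNA per cell cannot be told apart.

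The listed genes differed most at the DACH end of the network. At an adjusted p below 0.05 in the edgeR fit over 13937 genes, 5 of the 9 were past the threshold, where 48.3% of all tested genes were. Lower in mdx/mTR were 4 of them, Dach2, Dach1, Eya1 and Six4, beside 23.4% of all tested genes. Higher was 1, Eya3, beside 25.0% of all. The groups did not overlap for 2 of the 9, Dach1 and Dach2, beside 25.2% of all genes. These shares are given for scale, since the difference itself was known when the family was chosen.

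**Figure D1:**
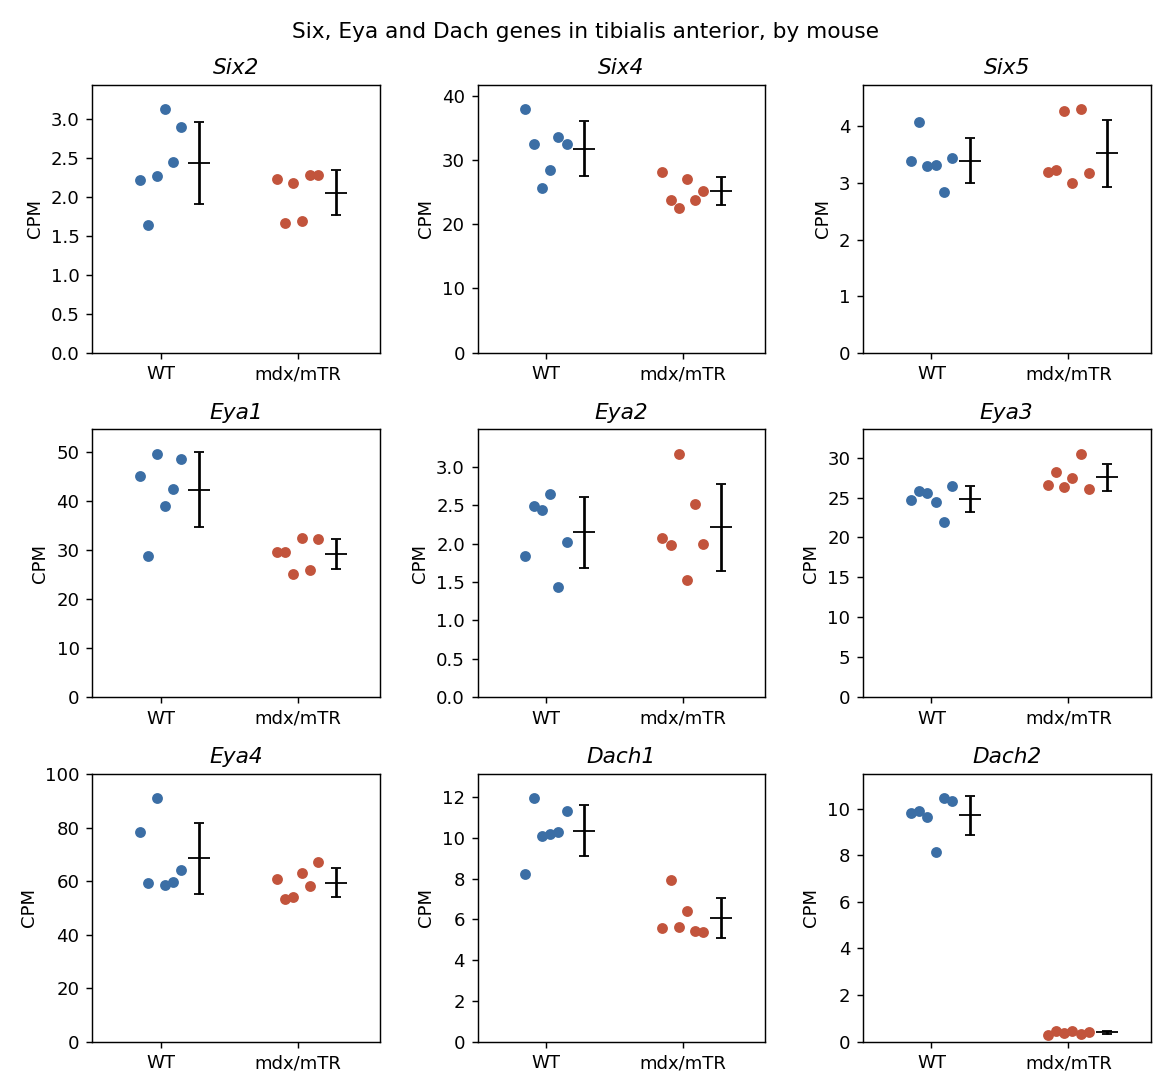
Level of each listed gene (CPM, y axis from 0) in each of 6 WT and 6 mdx/mTR mice (points), with the mean and SD of the group (bar). Dach2 lies between 8.15 and 10.4 CPM for WT mice and between 0.296 and 0.476 CPM for the others; Dach1 is the other gene whose groups do not overlap.

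Dach2, a corepressor linked to the response of muscle to innervation, was the most altered of the 9. In WT replicates 1 to 6 it stood at 9.81, 9.91, 9.63, 8.15, 10.4 and 10.3 CPM. In mdx/mTR replicates 1 to 6 it stood at 0.296, 0.476, 0.383, 0.470, 0.341 and 0.409 CPM. Every mdx/mTR mouse was low and none approached the WT range. Dach2 averaged 9.71 ± 0.830 CPM in the WT mice against 0.396 ± 0.0710 CPM in the others (SD, n = 6 each), so that 4.07% of the WT level was left, a ratio of 24.5. The log2 fold change was -4.60 ± 0.12 (SE). The low level was still counted: the mdx/mTR libraries held 14 to 31 Dach2 counts each, above the 3 counts taken as the floor, and the WT libraries held 307 to 400. The authors' deposited table gives -4.43 ± 0.15 (SE) for Dach2. No 50-base stretch of its longest coding transcript occurs in another annotated gene, and no annotated exon of another gene overlaps it.

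Dach1, the paralog of Dach2 on chromosome 14, was lower by a smaller factor. WT replicates 1 to 6 had 8.25, 11.9, 10.1, 10.2, 10.3 and 11.3 CPM of Dach1. The mdx/mTR replicates had 5.60, 7.94, 5.63, 6.44, 5.45 and 5.39 CPM. The highest mdx/mTR mouse, replicate 2, lay just under the lowest WT mouse, replicate 1. Dach1 averaged 10.4 ± 1.26 CPM in the WT mice against 6.07 ± 0.988 CPM in the others (SD, n = 6 each), and the log2 fold change was -0.77 ± 0.11 (SE). Per kb of the longest coding transcript, Dach2 made up 48.8% ± 3.61 of the Dach sum in WT. With the median length over all annotated transcripts instead, WT Dach2 stood at 3.59 and Dach1 at 2.05 CPM per kb, without overlap, so the balance of the pair in WT depends on the transcript model. In mdx/mTR, again with the longest transcript, the share of Dach2 was 6.20% ± 0.767, and the sum itself was 1.24 ± 0.200 CPM per kb against 3.87 ± 0.313 in WT.

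Eya1, an EYA coactivator of the fast fibre programme, was lower in mdx/mTR. WT replicates 1 to 6 had 45.1, 28.8, 49.6, 39.0, 42.5 and 48.5 CPM of Eya1. The mdx/mTR replicates had 29.6, 29.5, 25.1, 32.4, 25.9 and 32.2 CPM. WT replicate 2 alone fell inside the mdx/mTR range. The means were 42.2 ± 7.64 and 29.1 ± 3.07 CPM (SD, n = 6 each), a log2 fold change of -0.54 ± 0.11 (SE). Over the fits that left out 1 mouse, the log2 fold change ran from -0.63 to -0.49. The value of -0.63 came without WT replicate 2, where the WT mean was 44.9 ± 4.34 CPM. That mouse was singled out for its Eya1 level, so its removal adds no evidence of a difference. WT replicate 2 also held the highest Myh1 (17094 CPM, against at most 9929 in the other WT mice) and Myh2 (2161 CPM) and the lowest Myh4 (49911 CPM) of the WT group. In mdx/mTR, replicate 2 held the highest Myh1 (13061 CPM) and the lowest Myh4 (35257 CPM), while its Eya1 level of 29.5 CPM was mid-range. The part of fibre composition in the Eya1 levels was not tested.

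Eya4, the most abundant EYA gene, did not pass the threshold. Its levels ran from 58.4 to 91.0 CPM in WT (median 62.0) and from 53.4 to 67.3 CPM in mdx/mTR (median 59.6), with a log2 fold change of -0.20 ± 0.11 (SE). WT replicates 1 and 3, at 78.5 and 91.0 CPM, lay above all other libraries, and the remaining WT mice lay among the mdx/mTR mice. Without WT replicate 3 the log2 fold change was -0.11, and with library totals alone it was -0.05.

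Eya3, a widely expressed family member, was the gene on the higher side. It had 21.9 to 26.4 CPM in WT (median 25.1) and 26.1 to 30.5 CPM in mdx/mTR (median 27.0). The log2 fold change was 0.15 ± 0.06 (SE), and 4 of 6 mdx/mTR mice lay above every WT mouse. Eya3 was no longer past the threshold in 7 of the 12 fits that left out 1 mouse, with the replicate number as a block, or with no filter on low counts, and with library totals alone its value was 0.31. Eya2 was scarce and alike in level, at 2.15 ± 0.464 CPM for WT mice against 2.21 ± 0.564 CPM for the others (SD, n = 6 each). Its log2 fold change of 0.04 ± 0.19 (SE) had no stable sign and did not pass.

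The makeup of the EYA family is given per kb of the longest coding transcript. Eya1 made up 34.2% ± 3.78 of the summed Eya level in WT and 27.6% ± 1.89 in mdx/mTR. The share of Eya3 was 17.2% ± 2.32 and 22.1% ± 1.93. Eya4 held 45.5% ± 3.33 and 46.5% ± 1.80, so it was the leading EYA transcript in both groups.

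Six4, a Six-family gene of the muscle precursor programme, was lower in mdx/mTR. WT replicates 1 to 6 had 37.9, 32.5, 25.6, 28.5, 33.6 and 32.6 CPM of Six4. The mdx/mTR replicates had 28.2, 23.8, 22.6, 27.1, 23.8 and 25.2 CPM. The lowest WT library, replicate 3, accounts for the overlap. Over the fits that left out 1 mouse, the log2 fold change ran from -0.39, without that library, to -0.28. With all mice the means were 31.8 ± 4.26 and 25.1 ± 2.17 CPM (SD, n = 6 each) and the log2 fold change was -0.34 ± 0.09 (SE). With library totals as the only scaling it was -0.19 and no longer past the threshold; that scaling moves the median over all tested genes by 0.16 on the log2 scale.

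Six2 and Six5 were both scarce and did not pass. Six2, best known from kidney progenitors, ran from 1.65 to 3.13 CPM in WT (median 2.37) and from 1.67 to 2.29 CPM in mdx/mTR (median 2.21), with a log2 fold change of -0.25 ± 0.16 (SE), which was -0.16 without WT replicate 4 and -0.09 with library totals alone. Six5, which lies beside the myotonic dystrophy kinase gene Dmpk, ran from 2.85 to 4.08 CPM (median 3.35) and from 3.004 to 4.30 CPM (median 3.21), with a log2 fold change of 0.05 ± 0.12 (SE). In mdx/mTR, replicates 3 and 5 were the high Six5 libraries, and without either one the sign turned.

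**Figure D2:**
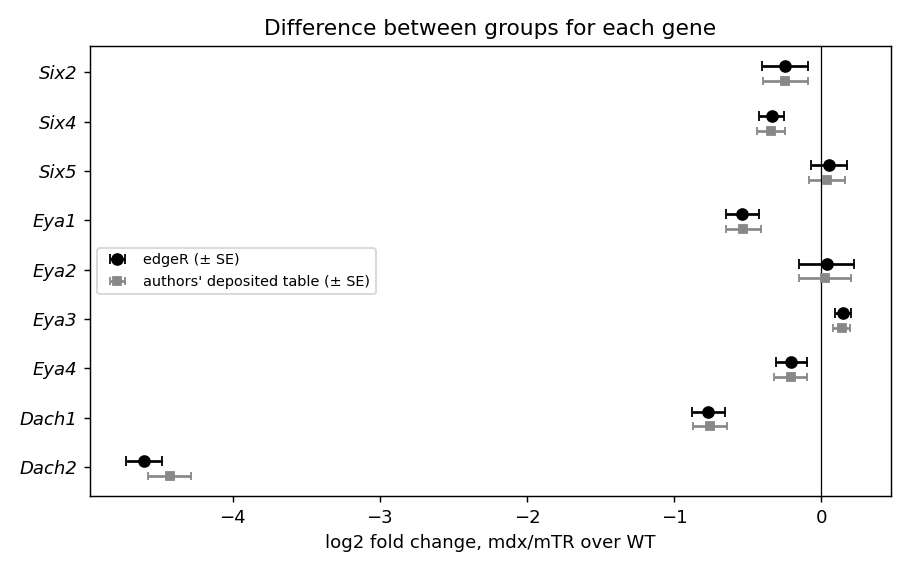
Difference between mdx/mTR and WT on the log2 scale (x axis) for each listed gene, from the edgeR fit (circles, ± SE) and from the authors' deposited table (squares, ± SE). Dach2 is near -4.60 in the fit and -4.43 in the authors' table; the other genes lie between -0.77 and 0.15.

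Ordered by level per kb of the longest coding transcript, the listed genes ran in WT from Eya4 (12.9 ± 2.51 CPM per kb) over Eya1 (9.68 ± 1.75), Eya3 (4.79 ± 0.308) and Six4 (4.66 ± 0.625) to Dach1 (1.98 ± 0.242) and Dach2 (1.88 ± 0.161). Six2 (1.15 ± 0.249), Six5 (1.13 ± 0.131) and Eya2 (0.872 ± 0.189) closed the order. Ranges over the 6 mice overlapped between Eya4 and Eya1, Eya3 and Six4, Dach1 and Dach2, and among the last 3 genes. In mdx/mTR the order was the same down to Six4, and Dach2 moved from its place beside Dach1 to last, at 0.0768 ± 0.0138 CPM per kb. Its highest mdx/mTR library, 0.0923 CPM per kb, lay under the lowest of the gene next above it, Eya2 at 0.623. With the median length over all annotated transcripts in place of the longest, Eya2 stood above Dach1 in both groups. In WT, Eya3 then no longer overlapped Six4, nor Dach2 Dach1, so these parts of the order depend on the transcript model.

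**Figure D3:**
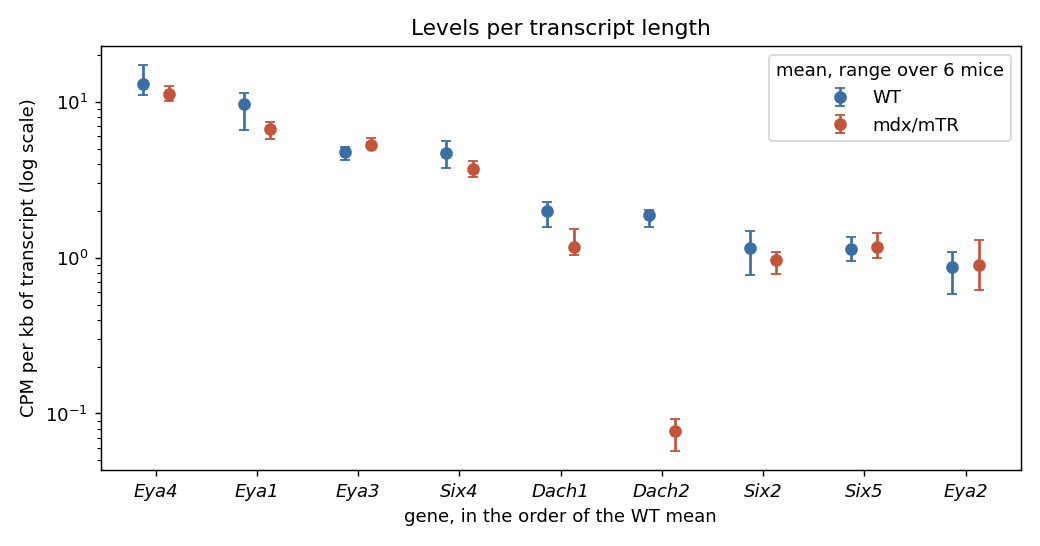
Mean level per kb of the longest coding transcript (log axis) for the 9 listed genes, in WT and mdx/mTR, with bars for the range over 6 mice. Eya4 is highest in both groups; Dach2 drops from 1.88 to 0.0768 CPM per kb, below every other gene shown.

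Relatives of the listed genes were few. Of 6 listed, 4 were tested, with 1 higher, 2 lower and a median log2 fold change of -0.19 against 0.01 over all tested genes. For scale here and in the lists below, 25.0% of all tested genes were higher and 23.4% lower. Ski, which shares a domain with the DACH proteins, fell by 0.15 ± 0.05 on the log2 scale (SE, edgeR adjusted p 0.0242). Skida1, another gene of that domain, fell by 0.70 ± 0.25 (SE, edgeR adjusted p 0.0334), from 0.554 to 0.341 CPM. It had only 12 to 27 counts per library, and its groups overlapped. Skil, the paralog of Ski, rose from 24.9 ± 2.76 to 30.4 ± 4.95 CPM (SD, n = 6 each; log2 fold change 0.29 ± 0.11 SE, edgeR adjusted p 0.0357). Each of these calls is lost in some fits without 1 mouse: from 0 to 3 of the relatives passed in such fits, with 0 without mdx/mTR replicate 1 and 1 without WT replicates 2, 3 or 4 or mdx/mTR replicates 2 or 4. With library totals alone the sign of Ski turned (0.00). Six3 had no count in any library, and Six6 was too low to be tested.

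Genes that act before the network in muscle precursors gave 3 higher and 2 lower of 8 tested, with a median of 0.10. Pax3, a precursor transcription factor, fell from 0.894 ± 0.0648 to 0.573 ± 0.118 CPM (log2 fold change -0.64 ± 0.17 SE, n = 6 each; edgeR adjusted p 0.0059). Lbx1, a homeobox gene of migrating limb precursors, fell by 0.37 ± 0.10 on the log2 scale (adjusted p 0.0087), a call lost with library totals alone. Meox1 rose by 0.69 ± 0.20 (adjusted p 0.0131). Pax7, the satellite cell gene, stood at 3.03 ± 0.322 and 3.32 ± 0.664 CPM (adjusted p 0.436).

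The histone deacetylase, Mef2 and electrical activity genes, the setting in which Dach2 is best known in muscle, moved in both directions. Of 20 tested, 10 rose and 3 fell, with a median log2 fold change of 0.29. Hdac9, the partner of Dach2, rose from 6.29 ± 0.881 to 9.01 ± 1.11 CPM (0.52 ± 0.10 SE, n = 6 each; edgeR adjusted p 0.0012). Its WT mice ran from 5.47 to 7.34 CPM and its mdx/mTR mice from 7.97 to 10.7 CPM, without overlap. Hdac4, a deacetylase induced by denervation, stood at 53.2 ± 13.4 and 49.5 ± 8.30 CPM (log2 fold change -0.10, adjusted p 0.590), and its sign turned without WT replicate 1 and with library totals alone.

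Of the genes named in that background, Myog and the 5 acetylcholine receptor genes of the list rose. Myog, the myogenic factor, went from 2.33 to 3.88 CPM in WT to 6.56 to 26.9 CPM in the mutants (a log2 change of 2.46 ± 0.28 SE, n = 6 each; edgeR adjusted p 1.7e-05). Chrna1, an acetylcholine receptor subunit, went from 12.9 to 15.8 CPM to 35.1 to 69.1 CPM (1.71 ± 0.16, adjusted p 2.7e-06). Chrng, the embryonic receptor subunit, went from 0.0278 to 0.157 CPM to 2.16 to 8.61 CPM (5.81 ± 0.48, adjusted p 1.2e-06); its WT level rests on counts near the floor, so the fold is imprecise. The subunit genes Chrnb1 (0.86), Chrnd (0.99) and Chrne (0.39) rose by these log2 values. Elsewhere in the list Musk, the kinase of the motor end plate, had a log2 value of -0.04 with no stable sign (edgeR adjusted p 0.863), while Camk2a (-0.42), Mef2a (-0.23) and Mef2d (-0.26) fell; with library totals alone Mef2a (-0.07) and Mef2d (-0.11) did not pass. Runx1, induced in denervated and regenerating fibres, had the smallest p-value of the list (2.63 ± 0.19, adjusted p 3.8e-07). Replicate 5 was the highest mdx/mTR mouse for Myog, Chrna1 and Chrng. Its Dach2 level of 0.341 CPM rested on 16 counts, too few to order the mdx/mTR mice by Dach2. A link between these levels was not tested.

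Markers of other cells and of the motor end plate moved beside these genes. Satellite cell and myoblast markers gave 3 higher and 1 lower of 6, with a summed level of 48.7 to 66.0 CPM in WT and 56.7 to 89.8 CPM in mdx/mTR. Motor end plate markers, of which Chrne and Musk were also in the electrical activity list, gave 4 higher of 6 (74.7 to 83.7 and 85.5 to 106 CPM). Macrophage markers gave 6 higher of 6 (67.3 to 117 and 206 to 597 CPM). Schwann cell markers gave 4 lower and 1 higher of 6 (44.3 to 56.1 and 25.6 to 39.4 CPM), and endothelial markers 3 lower and 1 higher of 6 (454 to 611 and 377 to 508 CPM). Fibro-adipogenic markers gave 5 higher of 6 (464 to 606 and 747 to 914 CPM), tenocyte markers 4 higher of 6 (135 to 210 and 246 to 486 CPM), and pericyte and smooth muscle markers 1 higher and 3 lower of 6 (346 to 477 and 347 to 414 CPM). None of 3 tested fat cell markers passed. The sum over all 4 listed, with the untested Lep, was 6.97 to 10.9 and 4.62 to 15.4 CPM. No marker was at 0 in any library, and the part of these cells in the levels of the listed genes was not tested.

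**Figure D4:**
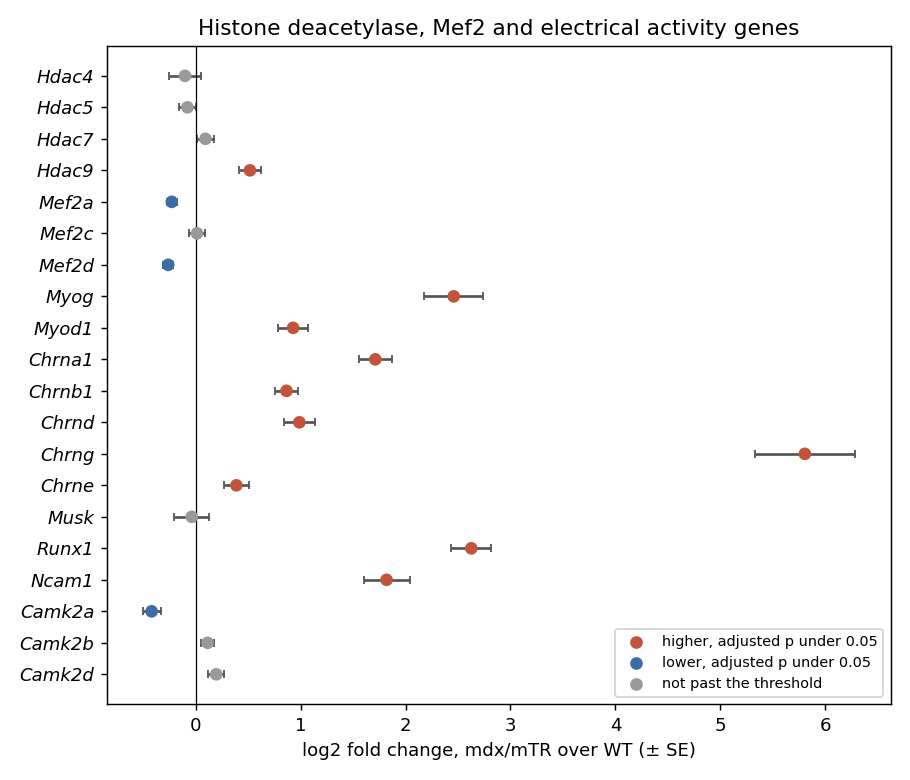
Difference between mdx/mTR and WT on the log2 scale (x axis, ± SE) for the 20 tested histone deacetylase, Mef2 and electrical activity genes. Chrng (5.81), Runx1 (2.63) and Myog (2.46) lie farthest to the right; Hdac9 is at 0.52 and Hdac4 near 0.

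Muscle genes described as targets of Six-family proteins gave 5 higher and 2 lower of 19 tested, beside 25.0% and 23.4% of all tested genes. The median log2 fold change of the list was -0.11. The rises with the smallest p-values were those of Myog and Myod1 (0.93 ± 0.14 SE, edgeR adjusted p 1.8e-04) and of Ezr, the gene of the membrane linker ezrin (1.48 ± 0.25, adjusted p 3.6e-04). Of the fast contractile and glycolytic genes in the list, Myh4 and Tnnc2 fell, Mylpf rose, and Tnnt3, Tnni2, Atp2a1, Pvalb, Aldoa, Eno3, Pfkm, Myl1 and Actn3 did not pass. DESeq2 called 11 genes of this list in place of 7.

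Beside Six5, the gene Dmwd fell by 0.27 ± 0.06 on the log2 scale (SE, n = 6 each; edgeR adjusted p 0.0016), from 42.8 ± 2.37 to 35.6 ± 2.60 CPM. Dmpk stood at 449 ± 13.9 and 411 ± 31.3 CPM (log2 fold change -0.13 ± 0.06, adjusted p 0.0786). Neither holds its call in all fits: with library totals alone Dmwd did not pass and the sign of Dmpk turned (0.03), and DESeq2 called Dmpk.

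The surroundings of Dach2 on the X chromosome were described after its values had been seen. Its gene model runs from chrX:113297510 to 113836386 on the plus strand (GENCODE M21, GRCm38). Of the 4 tested genes whose bodies lie within 1 Mb of the Dach2 gene body, Chm, the nearest, fell by 0.21 on the log2 scale (edgeR adjusted p 0.0303), and Apool, Zfp711 and Klhl4 had values of -0.14, -0.30 and -0.06 that did not pass. None approached the value of Dach2. Measured from start to start, within 10 Mb, 35 other genes were tested, of which 12 were higher and 7 lower. Among them Pgk1, the glycolytic phosphoglycerate kinase gene, stood apart at -3.82 ± 0.08 (SE, adjusted p 5.9e-13), and the remaining 34 ran from -0.62 to 3.17. The labels do not give the source of the X chromosome in mdx/mTR, which carries the mdx allele, so a difference between the X chromosomes of the strains and one due to the mutations cannot be told apart.

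**Figure D5:**
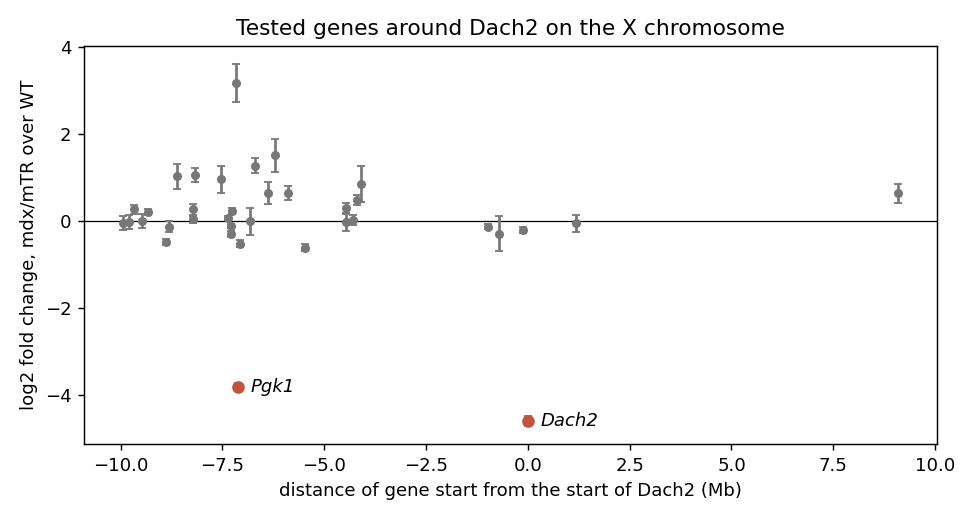
Difference between mdx/mTR and WT on the log2 scale (y axis, ± SE) of tested X-linked genes against the distance of their start from that of Dach2 (x axis, Mb). Dach2 (-4.60) and Pgk1 (-3.82) lie apart from the other genes, which run from -0.62 to 3.17.

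Likeness of profile was measured as the root mean square difference, over the 12 libraries, of log2(CPM + 0.05) values, each taken relative to its own WT mean, among 13097 other genes with a mean of at least 0.5 CPM. The genes nearest to Dach2 were Pgk1 (0.511), Exph5 (0.520) and Helt (0.620). Exph5 and Helt reached the mean of 0.5 CPM only through their WT mice. Helt went from 1.57 ± 0.296 to 0.0563 ± 0.0512 CPM, with 0 as its lowest mdx/mTR value. Likeness to Dach2 thus follows mainly from a large fall between the groups, the difference by which the family was chosen. Pgk1 went from 37.7 ± 1.24 to 2.67 ± 0.332 CPM (SD, n = 6 each), but other annotated genes, Pgk1-rs7 first among them, hold 68.0% of the 50-base windows of its sequence, which leaves its level uncertain. Exph5, on chromosome 9, went from 4.83 ± 1.25 to 0.156 ± 0.0659 CPM, with no such shared stretch. The genes nearest to Eya1 were Adcy2 (0.118) and Ankrd33b (0.125), and those nearest to Six4 were Fan1 (0.0954), Zfhx2 (0.111) and Cnep1r1 (0.113).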

How the data were processed

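Per the submitters' processing notes, STAR, DESeq2, FastQC and build mm10 were used; versions, the counter, the annotation and strand handling are not given in the sources used here. The authors deposited whole-number counts per gene symbol for 12 mice, and their own table with a mean normalized signal, a log2 fold change, its error, a score for the test and the p-values, per the file headers; only fold changes and errors of it are printed. The members and lists were chosen with earlier results of these data known.

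The deposited counts went unchanged into edgeR 4.0.16 (R 4.3.3): filterByExpr (13937 genes, 99.97% of counts), TMM, a quasi-likelihood test on group, and Benjamini-Hochberg adjustment at 0.05. SE is the log2 fold change divided by the square root of F. The named genes are the 9 listed ones, the 3 smallest passing p-values of each related list, a fixed set (Hdac9, Hdac4, Myog, Myod1, Chrna1, Chrng, Pax7, Pax3, Ski, Dmpk, Dmwd), Dmd and 3 nearest profiles; any other gene was named with its values known. Some items of these lists are not reported here. The procedure was also run, after the fits, on counts simulated from the fitted values of these data. Alternatives were DESeq2 1.42.0, limma-voom 3.58.1, other scalings and filters, a replicate block, a threshold of 0.01 and each mouse left out; the genes around Dach2 were added after seeing the data. Libraries of the same group differed by more than sampling noise (chi-square per degree of freedom at least 9.14), so none was a copy of another in its group. Separate libraries prepared from the same mouse would not be found by this check. P-values measure the spread between mice as labelled. Figures used matplotlib 3.10.9 and tables pandas 2.3.3.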

Additional observations from a re-analysis of the deposited data

Results flagged for a closer look

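Within each group of 6 mice, an extreme mouse was singled out where its distance to the next value, as a share of the range, passed the Dixon limit of 0.625. This covered 38 genes: the listed ones, those the naming rule chose, Dmd, 3 adult myosin genes and the nearest profiles. Of 76 groups of values, 8 did so, where chance gives 3.8 if the genes are independent and the values normally distributed. Neither was tested, so these counts are given for scale only. Among the listed genes the value singled out was Dach2 in WT replicate 4, the lowest WT library at 8.15 CPM against 9.63 to 10.4 CPM (ratio 0.645). The others were Hdac4 in WT replicate 1 (79.1 CPM against 42.0 to 54.8, ratio 0.656) and Chrng in WT replicate 5 (0.157 CPM, ratio 0.782). In WT replicate 2, Myh1 (17094 CPM against 7864 to 9929, ratio 0.776) and Myh2 (2161 CPM against 633 to 1151, ratio 0.661) were highest. In mdx/mTR replicate 5, Chrng (8.61 CPM, ratio 0.676) and Ezr (14.3 CPM, ratio 0.727) were highest and Dmpk (351 CPM, ratio 0.662) was lowest. No cause was tested for these values.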

How the results depend on the processing

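Across the alternatives, Dach2, Dach1 and Eya1 kept their direction and stayed past the threshold in all 12 fits that left out 1 mouse and in the 7 fits with another tool, scaling, filter or block; Dach2 ran from -4.67 to -4.45. The number of listed genes past the threshold was within 1.5 times of 5 in each fit, and the number of all genes past it ranged from 6076 to 7156, or 4621 at 0.01. With library totals alone, 78.2% of all calls were higher, in place of 51.6%.

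The sign of Six5 turned without mdx/mTR replicates 3 (-0.0088) and 5 (-0.0188), with a range of -0.0188 to 0.108 over the fits without 1 mouse. That of Eya2 turned without WT replicates 1 (-0.0059) and 5 (-0.0575) and mdx/mTR replicates 3 (-0.0878) and 5 (-0.0100), with a range of -0.0878 to 0.121. With library totals alone the values were 0.00486 for Ski, 0.0499 for Hdac4 and 0.0266 for Dmpk. Musk was 0.118 there and 0.00048 with upper quartile scaling. Without 1 mouse, Hdac4 ran from -0.165 to 0.0415 and Musk from -0.131 to 0.0538. Among relatives, 1 gene passed with library totals alone, 1 with the replicate block and 0 at a threshold of 0.01, and 0 to 3 without 1 mouse. At 0.01, 2 precursor genes passed. DESeq2 called 11 targets of Six-family proteins and 2 Six5 neighbours, and library totals alone called 0 of these neighbours. The cause was not tested.

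The groups share replicate numbers. Libraries with the same number had deviations from their group means that correlated from -0.139 to 0.334, and 2 of the 6 values were above 0.1. Unequal numbers were not compared, so these values cannot decide whether a shared number marks a pair. The main fit used no pairs because the labels name no shared litter or day. With the replicate block 6420 genes passed, and Eya3 (0.15) did not.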
